A study of Mus musculus with 4 samples.

Results

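The start of oocyte growth was examined by comparing non-growing oocytes (NGOs) with early growing oocytes (GO1) in RNA-Seq data from mouse ovaries. Genes entered the comparison when they had at least 1 RPKM (a read count divided by exon length in kilobases and by the library total) in NGOs or in GO1, which 10313 of the 25587 listed genes did. Of these, 8885 reached the minimum in both libraries, 937 in NGOs only and 491 in GO1 only.

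All oocytes came from wild-type mice of the C57BL/6 background (C57BL/6Babr), and no group carried an allele or had a treatment. NGOs were 10–40 μm in diameter and came from mice at 5 days post-partum (dpp), GO1 were 25–70 μm and came from mice at 8–14 dpp, GO2 were 50–70 μm at 15 dpp, and fully grown oocytes (FGOs, at the germinal vesicle stage) were over 70 μm at 20 dpp. The size ranges of NGOs and GO1 overlap. Each stage is 1 library made from pooled oocytes, so no value has a replicate check, no test between stages was possible and no p value is given. Total RNA depleted of ribosomal RNA was sequenced, with the dUTP protocol for NGOs and FGOs and the ScriptSeq kit for GO1 and GO2. Stage and kit cannot be told apart in the comparison of NGOs with GO1. A gene was therefore called an onset rise when GO1 was at least 4-fold above NGOs and FGOs, which share the kit of NGOs, were at least 2-fold above NGOs, and an onset fall by the same limits downwards. Both ratios share the NGO library and are not independent. Below, "rose" and "fell" are used for genes past these limits, and 4 values in a row are those of NGOs, GO1, GO2 and FGOs in this order (the last 3 where the later stages are named).

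Primordial follicles hold small oocytes arrested in meiotic prophase, and a few of them are recruited into growth at a time. On activation the PI3K pathway, driven by the KIT receptor, moves the transcription factor FOXO3 out of the nucleus, and the oocyte enlarges while it stores RNA and protein for the embryo. Germ cell transcription factors such as SOHLH1, FIGLA and NOBOX act early in this period, and several oocyte-specific gene families, many of them in tandem arrays, are transcribed as growth proceeds.

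Most genes differed little between NGOs and GO1, as 7089 (68.7%) changed by less than 2-fold. GO1 was at least 4-fold above NGOs for 233 genes (2.26% of those compared) and at least 4-fold below for 446 (4.32%). With the condition on FGOs, 154 genes rose (1.49%) and 225 fell (2.18%). GO2, which was not used to choose them, was at least 2-fold from NGOs in the same direction for all 154 rises and all 225 falls. It shares the kit of GO1, and its ratio shares the NGO value that the genes were chosen by, so this is no independent check. The median onset rise went from 0.457 RPKM in NGOs to 3.59, 5.55 and 4.98 at the 3 later stages. The median onset fall went from 4.48 RPKM to 0.645, 0.654 and 1.33. For 133 of the 154 rises GO2 was above GO1, beside 5698 of all 10313 genes compared. For 81 of the 225 falls FGOs were at least 4-fold below NGOs. Fold changes throughout are on the scale of log2(scaled RPKM + 0.1), which understates the change of genes near 0.

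**Figure D1:**
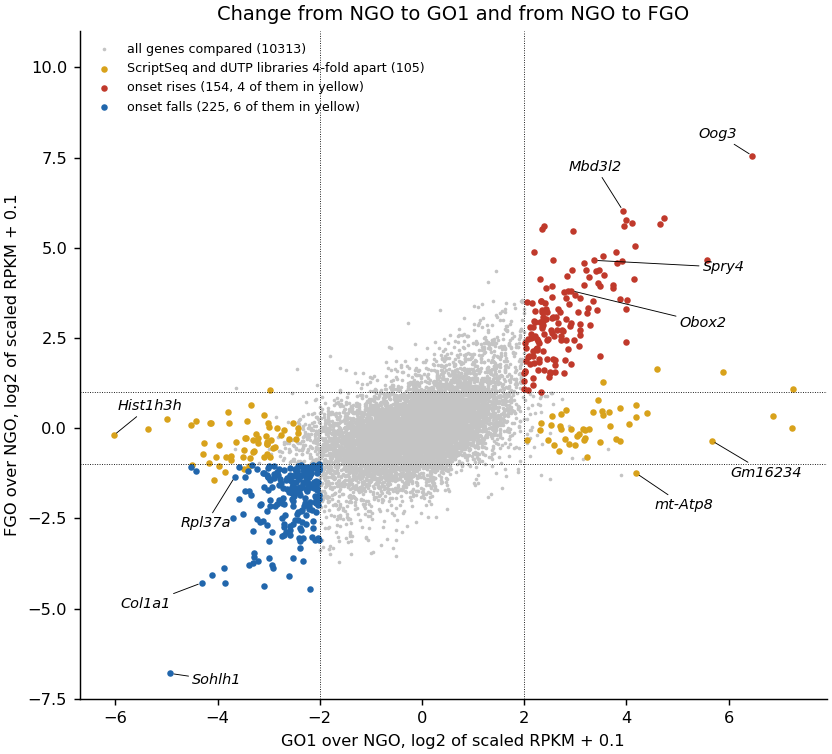
Change from NGOs to GO1 (x axis) and from NGOs to FGOs (y axis), both as log2 of scaled RPKM + 0.1, for the 10313 genes compared (1 point per gene). Dotted lines mark the limits of 4-fold in GO1 and 2-fold in FGOs, red and blue points are the onset rises (154) and onset falls (225), and yellow points are genes for which both ScriptSeq libraries lie at least 4-fold from both dUTP libraries, most of which lie near 0 on the y axis.

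The PRAME family, leucine-rich repeat proteins that include the oogenesins (Oog1 to Oog4) and are encoded in tandem arrays, led the rises. The family was singled out after its values were seen and was defined by RefSeq names. Of 37 PRAME genes in the table, 19 were compared, 15 of these rose and none fell, beside 1.49% of all genes that rose. Their median log2 change was 3.44 in GO1 and 4.12 in FGOs, where the median of all genes compared was −0.05 and −0.04. The other 18 PRAME genes stayed below 1 RPKM in both libraries and added up to 0.241 RPKM in NGOs and 0.763 in GO1. Levels of the 19 genes added up to 321 RPKM in NGOs and 1438, 1801 and 2214 at the 3 later stages.

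The promoters of 4 PRAME genes that rose, and of Sohlh1, the gene with the largest fall of at least 5 RPKM, are shown to place the tandem array and its shared upstream sequence beside the values. They are RefSeq promoters on GRCm38.p6, from 250 bases before to 50 after the start site, 5′ to 3′ on the strand of the gene, and lie at chr4:144162602-144162901 (minus strand), chr4:144190467-144190766 (plus), chr4:143846247-143846546 (plus), chr4:143450275-143450574 (minus) and chr2:25847199-25847498 (minus). In the 4 PRAME promoters capitals mark TATAAA or TAATTG on either strand, and in that of Sohlh1 they mark the E-box CANNTG.
Oog3: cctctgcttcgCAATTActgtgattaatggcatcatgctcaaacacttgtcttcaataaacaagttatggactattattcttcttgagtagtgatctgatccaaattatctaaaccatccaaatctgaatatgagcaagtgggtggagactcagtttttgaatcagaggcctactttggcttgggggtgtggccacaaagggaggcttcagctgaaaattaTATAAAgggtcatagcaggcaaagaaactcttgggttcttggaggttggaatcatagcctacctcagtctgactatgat
Oog2: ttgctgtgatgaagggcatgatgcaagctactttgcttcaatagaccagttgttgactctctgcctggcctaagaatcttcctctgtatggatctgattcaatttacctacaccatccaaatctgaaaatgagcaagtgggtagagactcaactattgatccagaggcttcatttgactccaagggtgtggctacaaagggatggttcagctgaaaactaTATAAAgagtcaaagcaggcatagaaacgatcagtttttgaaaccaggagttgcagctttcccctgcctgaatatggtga
Gm13103: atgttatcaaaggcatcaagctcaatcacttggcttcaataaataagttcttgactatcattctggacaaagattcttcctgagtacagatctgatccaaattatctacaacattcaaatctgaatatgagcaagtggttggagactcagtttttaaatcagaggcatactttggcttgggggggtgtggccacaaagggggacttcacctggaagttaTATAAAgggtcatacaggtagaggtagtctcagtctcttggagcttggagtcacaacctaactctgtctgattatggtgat
Oog4: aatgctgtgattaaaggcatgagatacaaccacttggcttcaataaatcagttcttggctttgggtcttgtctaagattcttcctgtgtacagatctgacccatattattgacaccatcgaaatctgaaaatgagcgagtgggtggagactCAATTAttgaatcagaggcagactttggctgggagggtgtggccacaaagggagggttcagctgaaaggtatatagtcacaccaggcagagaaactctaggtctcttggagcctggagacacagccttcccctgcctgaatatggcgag
Sohlh1: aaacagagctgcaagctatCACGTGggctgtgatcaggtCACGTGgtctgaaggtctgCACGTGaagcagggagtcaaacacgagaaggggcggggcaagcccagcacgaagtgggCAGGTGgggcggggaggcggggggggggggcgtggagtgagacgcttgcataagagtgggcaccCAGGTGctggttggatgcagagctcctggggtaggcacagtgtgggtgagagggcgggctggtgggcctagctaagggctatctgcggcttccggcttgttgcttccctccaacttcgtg

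The 4 PRAME promoters were alike, with between 73.3% (Oog2 with Oog3 and with Gm13103) and 81.0% (Oog3 with Gm13103) identical bases after alignment. By the same alignment the Sohlh1 promoter shared between 54.3% (with Oog3) and 58.3% (with Oog4) of bases with them. TATAAA, the TATA box, began 29, 30 and 31 bases before the start of Oog3, Oog2 and Gm13103. The letters of TAATTG, the NOBOX element, stood on the other strand 239 bases before the start of Oog3 and 99 before that of Oog4. Sohlh1 carried 5 E-boxes, of which 3 read CACGTG and 2 read CAGGTG. E-boxes are not marked in the PRAME promoters, which held 3 (Oog3), 4 (Oog2), 3 (Gm13103) and 2 (Oog4).

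Among the 154 onset rises, 111 matched a RefSeq promoter, and 16 (14.4%) held TAATTG, 19 (17.1%) TATAAA and 89 (80.2%) CANNTG, all searched on both strands. The shares over all 32851 RefSeq promoters of the same length were 8.0%, 13.6% and 72.3%, and over the 8032 matched promoters of the genes compared 4.84%, 6.88% and 62.8%. The 12 matched promoters of PRAME genes that rose held TAATTG in 6, TATAAA in 5 and CANNTG in all 12, and they are related sequences. Among the 177 matched promoters of onset falls, 2 (1.13%) held TAATTG, 16 (9.04%) TATAAA and 125 (70.6%) CANNTG. Promoters of the rises had a median GC content of 50.7%, those of the falls 59.0% and those of all genes compared 61.0%, and the part of base composition in these shares was not tested. A match of letters is not a binding site.

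Oog3 was at 0.848 RPKM in NGOs (95% Poisson interval 0.727 to 0.984) and 79.0 (77.8 to 80.1), 151 and 171 at the 3 later stages. Against NGOs the change of Oog3 was 88.3-fold in GO1 and 188-fold in FGOs. Oog2, its neighbour in the array, was at 0.394, 8.3, 18.7 and 15.4 RPKM in the same order (18.0-fold in GO1). Of the 14 PRAME genes compared on chromosome 4, 11 rose. Pramef8 (chr4:143412426-143421091), at 7.02, 4.03, 5.78 and 8.79 RPKM, lay between genes that rose. Gm13125 (chr4:144372760-144377933; 22.5 RPKM in NGOs and 30.7 in GO1) and Pramef12 (chr4:144391674-144408464; 73.5 and 88.4) lay beyond Oog2 and C87977 and did not reach 4-fold. Next to the array rose Pdpn, which encodes the membrane glycoprotein podoplanin and is no PRAME gene, with 4.21 RPKM in NGOs and 16.9, 27.0 and 22.9 at the 3 later stages.

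Other genes of that array rose from low levels. Gm13089 (Pramel23 in RefSeq) went from 0.175 to 6.82 RPKM in GO1 and 14.8 in FGOs, and C87977 (Pramel29) from 1.99 to 29.8 and then 40.6 in GO2. Pramef17 was at 0.588 RPKM in NGOs and 9.4 in GO1, Gm13103 at 1.22 and 21.9, and Oog4 at 6.29 and 66.8. Each of these 5 genes was lowest in NGOs, which the limits require against GO1 and FGOs. On chromosome 5, 3 of the 4 PRAME genes compared rose. Among them, C87414 (Pramel34) went from 11 RPKM in NGOs to 112 in GO1 and 219 in FGOs, and AA792892 from 2.87 to 30.4 and 46.6. Other genes of chromosome 5 that RefSeq symbols did not place in the family rose too. Among them were AC130832.1 (0.0991 to 8.81 RPKM in GO1), AC125068.1 (0.638 to 7.71), the pseudogene Gm7919 (0.276 to 8.92) and Gm3286. Oog1, on chromosome 12, was the most abundant PRAME gene in NGOs, with 121 RPKM there and 505, 550.0 and 706 RPKM at the later stages. D5Ertd577e, the other PRAME gene compared on chromosome 5, had 17.1 RPKM in NGOs and 47.7 in GO1 and did not reach 4-fold.

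**Figure D2:**
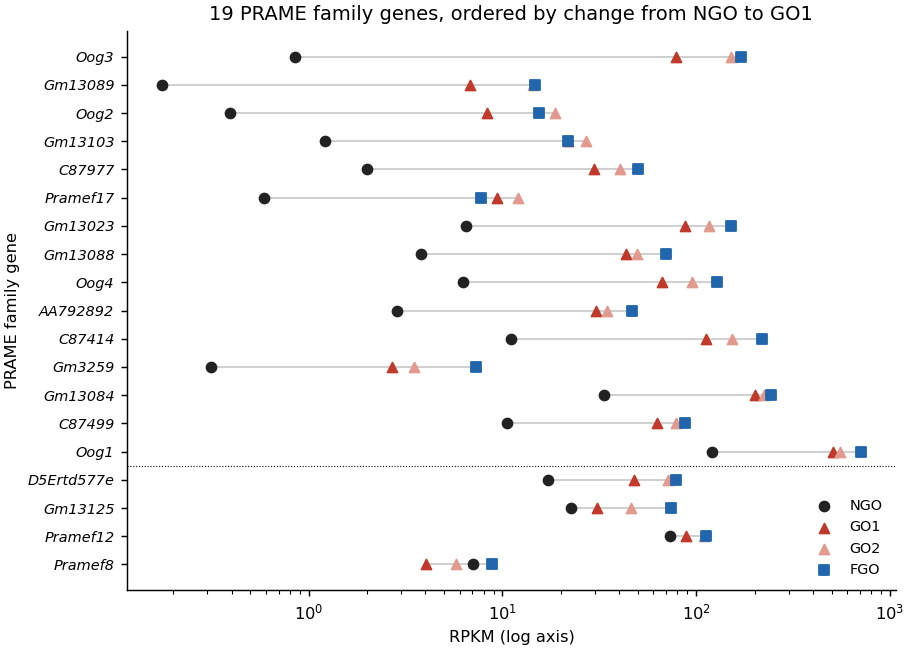
Levels of the 19 PRAME genes compared in NGOs, GO1, GO2 and FGOs, in RPKM on a log axis, ordered by the change from NGOs to GO1. Above the dotted line lie the 15 genes that rose, which by the limits used are lower in NGOs than in GO1 and FGOs. Pramef8, at the bottom, is lowest in GO1.

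Homeobox genes of the Obox family, also oocyte-specific and arranged in tandem on chromosome 7 (15354037 to 15759800), rose in all 3 of the genes compared, beside 1.49% of all genes. Obox2 was at 52.8 RPKM in NGOs and 378, 449 and 709.9 at the 3 later stages (7.58-fold in GO1). Obox1 went from 7.36 to 66.2 RPKM in GO1 and Obox5 from 27.2 to 124, and both stayed at the level of GO1 or above it in GO2 and FGOs. Obox3 and Obox6 were at or below 0.0399 RPKM in every library. Obox1 overlaps another listed gene, and copies of such families share sequence, so the split of reads among members of the PRAME, Obox and NLRP families is uncertain.

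Of 10 oocyte NLRP genes, which encode NACHT and leucine-rich repeat proteins and include maternal-effect genes, 2 rose and none fell, beside 1.49% and 2.18% of all genes (median log2 change 1.33 in GO1 and 1.18 in FGOs). Nlrp9c was at 3.3 RPKM in NGOs and 23.1, 32.5 and 45.1 at the 3 later stages. Nlrp9b was at 19.5, 110.4, 105 and 71.0 RPKM, highest in the ScriptSeq libraries but 3.78-fold above NGOs in FGOs. Nlrp9a, the third gene of this subgroup, went from 12.9 to 41.0 RPKM (3.35-fold), short of the limit. Nlrp14 was the most abundant gene of the list, with 1780.4 RPKM in NGOs and 1623 in GO1. The list of oogenesin, OOSP and OAS1 genes had 4 rises among 9 genes compared, beside the same 1.49%, namely Oog1 to Oog4.

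Outside these families the rises took in signalling genes and transcription factors. Spry4, an inhibitor of receptor tyrosine kinase signalling, was at 1.51 RPKM in NGOs and 15.6, 21.2 and 38.6 at the 3 later stages. It was higher in each stage than in the one before, and the change was 10.3-fold in GO1. Bmp5, a secreted ligand of the TGF-β superfamily, went from 1.81 to 9.19 RPKM in GO1 and 13.2 in FGOs, and Wls, which carries WNT proteins to the cell surface, from 0.662 to 3.24 and 5.55. The hormone gene Gnrh1 was at 2.93 RPKM in NGOs and 12.6, 28.1 and 32.3 at the 3 later stages.

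Transcription factors among the rises included Ehf, of the ETS family (2.53 RPKM in NGOs, 19.8 in GO1 and 32.3 in FGOs). Lef1, a nuclear partner of β-catenin, was at 0.216, 1.55, 1.97 and 1.59 RPKM, and the homeobox gene Emx2 at 0.108, 1.82, 1.59 and 1.35. Zinc finger genes Zfp735 (0.836 to 9.8 RPKM in GO1) and Zfp616 (2.23 to 20.3) rose by 11.2-fold and 9.29-fold. In each of these 5 genes the NGO library alone was low, which the limits require against GO1 and FGOs.

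Mbd3l2, whose protein resembles the methyl-CpG binding protein MBD3, went from 0.309 RPKM in NGOs to 5.8, 15.6 and 25.5 at the 3 later stages. Between GO1 and FGOs it gained further, to 65.3-fold above NGOs. Usp29, a deubiquitinating enzyme, went from 1.07 to 7.7 RPKM in GO1, Mllt11 from 1.2 to 9.56, and Fbxw28, an F-box gene, from 13.3 to 86.2. Fmn2, a formin that nucleates actin and is needed for spindle positioning in oocytes, went from 2.8 to 13.6 RPKM in GO1 and back to 5.48 in FGOs, just past the 2-fold limit. Spam1, known for its hyaluronidase on sperm, was at 0.844 RPKM in NGOs and 5.8, 7.21 and 5.82 at the 3 later stages.

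Of the 154 rises, 116 (75.3%) are protein-coding by GENCODE, against 86.1% of all genes compared, and 43 (27.9%) have symbols of the Gm or Rik kind, against 10.2%. The X chromosome held 15 rises (9.74%), against 3.28% of the genes compared, and 14 of the falls (6.22%). The largest value, for AC152922.1, rests on a span of 78 bases on chromosome 10 (43456424 to 43456501) that overlaps another gene. It had 0 counts in NGOs, 141 in GO1 (at least 43.4-fold above a floor of 3 counts), 559 in GO2 and 1 in FGOs, so that its place among the rises depends on that 1 count. Gm20697, with 3 counts in NGOs, 565 in GO1 and 21 in FGOs, also overlaps another gene. Among the rises, 5 had fewer than 3 counts in NGOs and 8 stayed under 1 RPKM in FGOs.

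**Figure D3:**
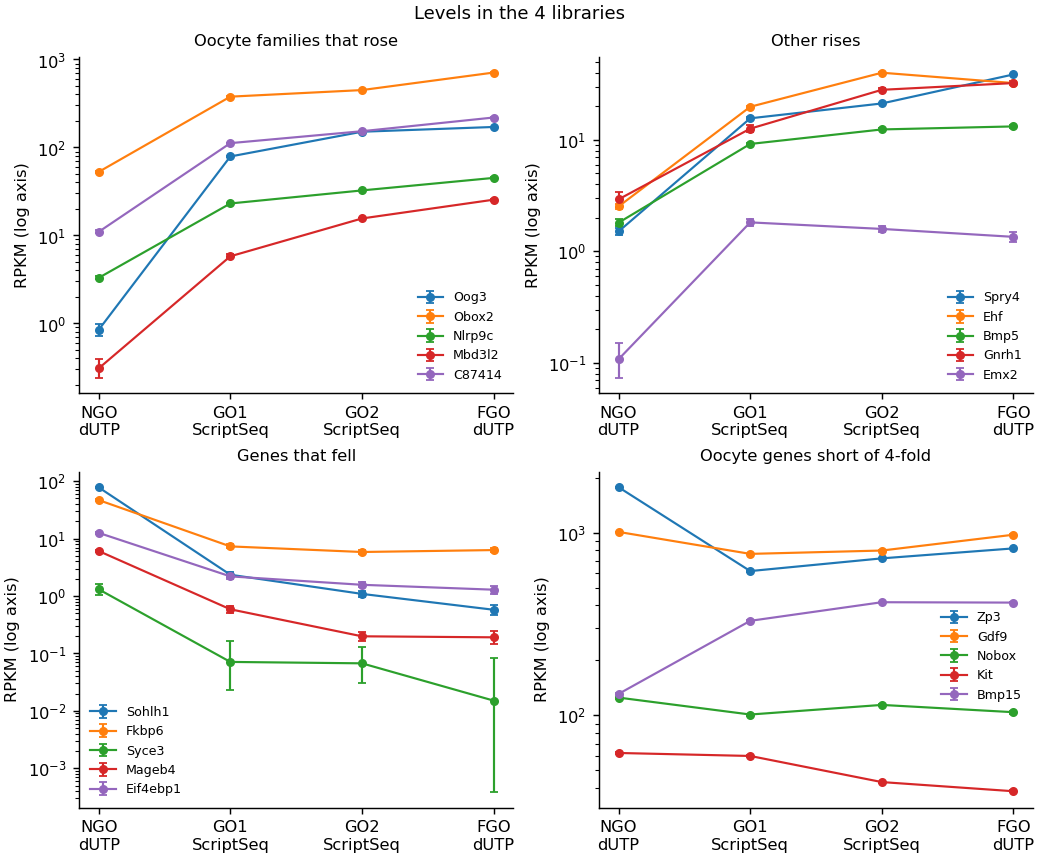
RPKM (log axis) of 20 genes in the 4 libraries with their kits. Bars are 95% Poisson intervals, which cover counting error only and are mostly smaller than the points. Genes of the upper panels are onset rises and those at lower left onset falls, so the limits fix the place of NGOs against GO1 and FGOs. Genes at lower right did not reach the 4-fold limit in GO1.

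Sohlh1, a basic helix-loop-helix factor needed for the first steps of follicle formation and growth, had the largest onset fall. It was at 78.0 RPKM in NGOs (76.6 to 79.5) and 2.35 (2.12 to 2.6), 1.09 and 0.577 at the 3 later stages. Each later stage was lower than the one before, and the drop was 30.2-fold in GO1 and 111-fold in FGOs. It was the only fall among 12 oocyte transcription factors compared, of which none rose, beside 2.18% and 1.49% of all genes (median log2 change −0.47). Its partner Sohlh2 was at 12.1, 3.69, 2.19 and 2.01 RPKM and Figla at 102, 38.9, 23.6 and 20.6, both highest in NGOs but with 3.05-fold and 2.47-fold changes in GO1. Nobox (125 RPKM in NGOs and 101 in GO1) and Lhx8 (40.9 and 31.9) changed by less than 1.3-fold.

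Of 10 genes of the synaptonemal complex and HORMAD group, which hold homologous chromosomes together in meiotic prophase, 2 fell and none rose, beside 2.18% and 1.49% of all genes compared. Fkbp6, a cochaperone with roles in synapsis and in the piRNA pathway, was at 46.9 RPKM in NGOs and 7.32, 5.85 and 6.32 at the 3 later stages. Syce3, of the central element, had 1.31 RPKM in NGOs (80 counts) and 0.0712 in GO1 (5 counts). For Sycp1, of the transverse filaments, and Sycp3, of the chromosome axes, the larger difference lay between GO1 and FGOs, as the first was at 18.3 RPKM in NGOs and 15.9, 7.46 and 2.79 at the 3 later stages, and the other at 66.3, 36.7, 22.9 and 9.48. The list's median log2 change was −0.69 in GO1 and −2.49 in FGOs. None of 18 meiotic recombination genes and none of 6 meiotic cohesin genes passed 4-fold in GO1, and Smc1b, a cohesin subunit of meiosis, went from 54.5 to 36.0 RPKM in GO1 and 6.02 in FGOs.

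Rbm46, an RNA-binding protein of germ cells, fell from 3.7 RPKM in NGOs to 0.498, 0.208 and 0.117 at the 3 later stages. Of 6 genes compared whose symbols place them in the MAGE family of the X chromosome, 3 fell and 1 rose, beside 2.18% and 1.49% of all genes. The family was singled out after its values were seen, and of all 338 X-linked genes compared 14 fell and 15 rose. Maged1 was at 49.8 RPKM in NGOs and 10.2, 4.13 and 2.07 at the 3 later stages, and Mageb4 at 6.08, 0.588, 0.199 and 0.191, while Magea10 was at 0.318, 1.91, 6.21 and 18.4. In the first 2 genes, GO1 lay between NGOs and the later stages. Kdm5b, a demethylase of histone H3 lysine 4, was at 3.34 RPKM in NGOs and 0.644 in GO1. Of 18 genes for meiotic entry and the early germ cell none passed the limit; the piRNA factor Piwil2 came nearest, from 29.2 to 7.43 RPKM (3.67-fold).

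Single falls picked out after their values were seen included genes of cell death and of the cell cycle. Cdkn2a, which encodes the inhibitors p16 and p19ARF, was at 3.22 RPKM in NGOs and at or below 0.229 in the other libraries. Bid, which activates BAX, was at 1.38 RPKM in NGOs and 0.127 in GO1, and Bax itself at 15, 1.67, 2.03 and 5.54 RPKM across the 4 libraries, lowest in the ScriptSeq libraries. Others that fell at least 4-fold both in GO1 and in FGOs were the major histocompatibility gene H2-K1 (46.5 RPKM in NGOs, 8.13 in GO1, 7.57 in FGOs), the scaffold protein gene Gipc1 (13.1, 1.53 and 1.64) and the prolyl isomerase gene Fkbp9 (11.8, 1.65 and 1.62). The ribonuclease inhibitor gene Rnh1 was at 8.55, 0.627 and 1.49 RPKM, Ift27 at 19, 3.33 and 2.11, Marcksl1 at 7.19, 1.22 and 0.599, the lysosomal protease gene Ctsa at 6.12, 1.08 and 0.629, and Rangrf at 5.24, 0.845 and 0.922.

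Among 24 genes of the KIT, PI3K and mTOR pathway, 1 fell and none rose, beside 2.18% and 1.49% of all genes (median log2 change −0.25). This was Eif4ebp1, the translation repressor that mTOR inactivates, with 12.6 RPKM in NGOs and 2.2, 1.57 and 1.29 at the 3 later stages. The receptor gene Kit was at 62.2 RPKM in NGOs and 59.9 in GO1, Foxo3 at 27.4 and 30.6, and the cell cycle inhibitor Cdkn1b at 11 and 8.84. These 3 transcripts differed by at most 1.18-fold between NGOs and GO1.

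Genes that define the growing oocyte were already abundant in NGOs. The zona pellucida genes Zp1, Zp2 and Zp3, for the coat of the oocyte, were at 633, 2261 and 1772 RPKM in NGOs and at 254, 1643 and 616 in GO1, and none reached 4-fold. Gdf9, an oocyte-secreted growth factor, was at 1009 RPKM in NGOs and 765 in GO1. Bmp15, its X-linked relative, was the 1 gene of 6 in its list with a 2-fold increase before the GC centring described below, at 131, 329, 416 and 414 RPKM. Bmp6 (21.2 and 21), Fgf8 (31.3 and 24.0), the connexin gene Gja4 (101 and 53.2) and Gpr3 (4.66 and 7.24), the receptor that keeps meiotic arrest, stayed within 2-fold. None of 7 genes of the subcortical maternal complex, 25 of maternal mRNA storage, 24 of meiotic arrest and maturation, 18 of DNA methylation or 13 oocyte histones and chaperones passed 4-fold. Cd81, which encodes a tetraspanin of the egg surface, was the single fall of 6 genes for sperm fusion and egg activation (2.8 RPKM in NGOs and 0.327 in GO1), beside 2.18% of all genes. None of 8 amino acid transporters passed the limit. Abundant members of these lists were Padi6 (3359.9 RPKM in NGOs and 1371 in GO1), Btg4 (223 and 547), Dnmt1 (845 and 848) and Npm2 (685 and 874). Dnmt3l, the cofactor of de novo DNA methylation, was at 3.25 RPKM in NGOs and 8.48, 14.5 and 28.3 at the 3 later stages, which is 2.71-fold above NGOs in GO1 and 8.83-fold in FGOs. The germ cell marker Dazl was at 126 and 132 RPKM and Ddx4 at 67.4 and 70.9, so that 9 of 10 oocyte markers stayed within 4-fold and Sohlh1 was the exception.

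**Figure D4:**
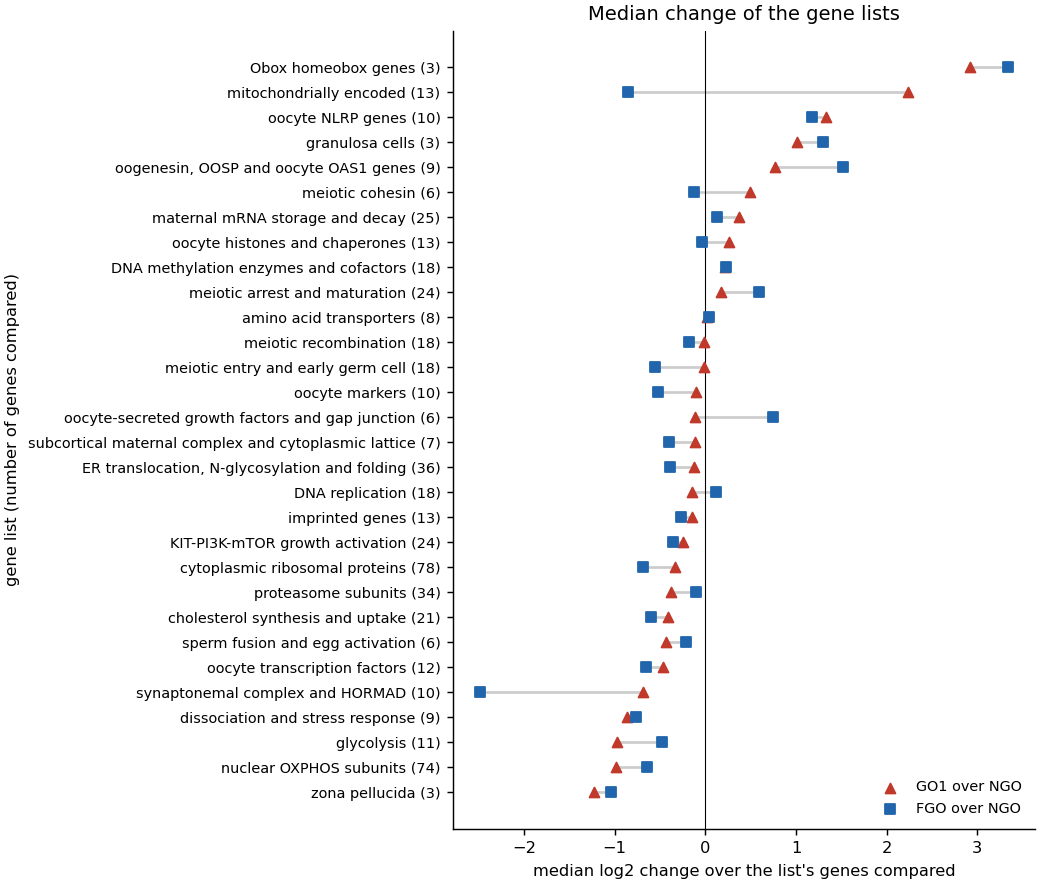
Median log2 change over the genes compared of each list with at least 3 of them, for GO1 over NGOs (triangles) and FGOs over NGOs (squares), 1 library per stage. The Obox and NLRP lists are higher in both, the mitochondrially encoded genes lie on opposite sides of 0 (2.24 and −0.85), and the synaptonemal complex list lies lower in FGOs (−2.49) than in GO1 (−0.69).

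Some genes of energy metabolism and protein synthesis were lower in GO1. Among 74 nuclear genes for subunits of oxidative phosphorylation 15 were at least 4-fold lower, 7 of which were onset falls, and none was 4-fold higher, beside 4.32%, 2.18% and 2.26% of all genes (median log2 change −0.98 in GO1 and −0.64 in FGOs). Cox4i1, a subunit of cytochrome c oxidase, was at 255 RPKM in NGOs and 40.2, 47.7 and 114 at the 3 later stages, and Atp5d, of ATP synthase, at 10.5, 0.806, 0.999 and 3.88. Both were lowest in the ScriptSeq libraries, with FGOs between them and NGOs. Cox6a2, a cytochrome c oxidase subunit gene that the list leaves out, rose (0.371, 2.34, 4.34 and 4.15 RPKM). It overlaps another listed gene and was picked out after its values were seen. Of 78 cytoplasmic ribosomal protein genes 10 were 4-fold lower and 5 fell, beside the same 4.32% and 2.18% (median −0.34), among them Rpl37a, at 177, 13.1, 18.2 and 66.5 RPKM, and Rps3, at 29.8, 4.52, 6.77 and 10.6. Psmb5 was the single onset fall of 34 proteasome genes (64.8, 8.17, 12.3 and 30.1 RPKM), beside 2.18% of all genes that fell. Of 11 glycolysis genes none passed 4-fold, and Ldhb was at 1480.2 RPKM in NGOs and 652 in GO1. Mvd (7.96 to 1.8 RPKM in GO1) and Tm7sf2 (3.75 to 0.693), which encode enzymes of cholesterol synthesis, fell. Genes for entry into the endoplasmic reticulum had 2 falls among 36, beside 2.18% of all genes, namely Ddost (50.6 to 9.08 RPKM) and Ssr4 (9.03 to 1.48). Many ribosomal protein genes have processed copies elsewhere in the genome, which makes their read assignment uncertain.

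The change from NGOs to GO1 varied with the base composition of the transcripts. Across 5 bins of equal size that held the 9266 genes with a GENCODE transcript, ordered by GC content, the median log2 change was 0.55, 0.25, −0.04, −0.49 and −0.92 from the lowest to the highest GC. From NGOs to FGOs it was 0.05, 0.02, −0.02, −0.11 and −0.15, and from NGOs to GO2 it was 0.41, 0.19, 0.0, −0.35 and −0.7. The slope was thus steep in both ScriptSeq libraries and shallow in FGOs. Onset falls had a median GC content of 55.9% and onset rises of 45.3%, against 49.5% for all genes compared. When the median of 20 GC bins was taken away from each ratio, a step added after the values were seen, 113 of 139 rises with a GC value were kept and 79 of 198 falls. The changes of Oog3 (log2 5.98), Mbd3l2 (3.24), Obox2 (2.44), Spry4 (3.55), Sohlh1 (−3.93), Fkbp6 (−2.01), Mageb4 (−3.25) and Rpl37a (−3.79) stayed past 4-fold in GO1. Those of the rises Oog1 (1.73), Obox5 (1.79), Bmp5 (1.82) and Wls (1.73) did not. Neither did those of the falls Maged1 (−1.78), Cox4i1 (−1.74), Eif4ebp1 (−1.69), H2-K1 (−1.72) and Gipc1 (−1.82). Of the 3 Obox genes 4-fold higher 2 were kept, and of the 4 in the oogenesin, OOSP and OAS1 list 3. Of the 4 stress and dissociation genes 4-fold lower 2 were kept, and 1 other was gained on the higher side. Of the 15 oxidative phosphorylation genes 4-fold lower before centring 9 were kept and 1 other was gained, and of the 10 ribosomal protein genes 7 were kept, with 1 other gained on the lower side and 2 on the higher. Centring also put 2 of 18 DNA methylation genes past 4-fold on the higher side, Tet3 and Dnmt3l (log2 2.01). In the list of oocyte-secreted growth factors it left Bmp15 (log2 0.93) short of a 2-fold increase and put Gpr3 (1.28) and Bmp6 (1.06) past it. Fgf8 (0.83), Gdf9 (0.1) and Gja4 (0.14) stayed below. The part of GC content in any single change was not tested.

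**Figure D5:**
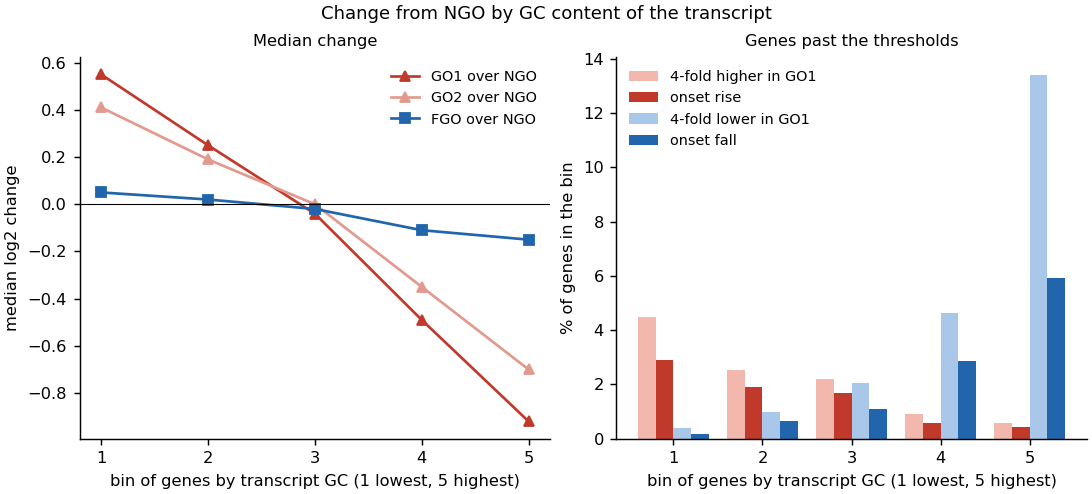
Left, the median log2 change from NGOs in GO1, GO2 and FGOs over 5 equal bins of genes by transcript GC content, where GO1 goes from 0.55 to −0.92 and FGOs from 0.05 to −0.15. Right, the percent of genes in each bin that were 4-fold higher or lower in GO1 or were onset rises or falls; the percent 4-fold lower goes from 0.378 in the lowest bin to 13.4 in the highest.

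Changes that FGOs did not share made up 79 of the 233 higher genes and 221 of the 446 lower ones. For 46 genes (0.446% of those compared) both ScriptSeq libraries were at least 4-fold above both dUTP libraries, and for 59 (0.572%) at least 4-fold below. These sets overlap the onset calls, as 4 of the 46 were also onset rises and 6 of the 59 also onset falls. The higher set held AC116996.1 (0 counts in NGOs and FGOs, 14.2 RPKM in GO1, at least 144-fold above a floor of 3 counts), 9530026F06Rik (0.0101, 12, 32.6 and 0.0375 RPKM) and Gm16234 (2.87, 143, 156 and 2.14), beside AC152922.1 and Gm20697. Genes of replication-dependent histones, whose mRNAs end in a stem-loop in place of a poly(A) tail, made up 17 of the 59 lower genes. Hist1h3h was at 297 RPKM in NGOs and 4.19, 10.3 and 248 at the 3 later stages. Hist1h4j, Hist1h3f and Hist2h3c2 were likewise low in both ScriptSeq libraries. So was the locus CR974575.1 (52.0, 2.1, 3.55 and 24.7), which was also an onset fall. Over 52 clustered histone genes compared the median log2 change at the later stages was −1.96, −1.53 and 0.03. Of these genes 24 were 4-fold lower in GO1 but 2 were onset falls, beside 4.32% and 2.18% of all genes. The 2 falls were Hist1h4f (15.4, 0.545, 2.06 and 6.99 RPKM) and Hist1h4b. In the other direction 2 were 4-fold higher, beside 2.26% of all genes. These were Hist2h2aa1 (0.86, 4.43, 5.54 and 0.911) and Hist1h4n (0.0841, 1.94, 1.63 and 0.33), the latter an onset rise.

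Mitochondrially encoded transcripts, taken as a sum, were highest in GO1. Of 13 genes 7 were at least 4-fold above NGOs (median log2 change 2.24), beside 2.26% of all genes compared. The summed level of the 13 genes was 2397 RPKM in NGOs and 6155, 2478 and 741 at the 3 later stages. mt-Atp8, of ATP synthase, was at 105, 1821, 429 and 42.4 RPKM and mt-Nd4, of complex I, at 15.6, 217, 75.4 and 11.6 RPKM. The median change in FGOs was −0.85, and the 1 onset rise among them, beside 1.49% of all genes, was mt-Nd6, which is encoded on the opposite strand from the others. Pcna, the sliding clamp of DNA replication, was the only one of 18 replication genes past 4-fold, beside 2.26% of all genes that were 4-fold higher. It was at 1.56, 7.67, 7.03 and 1.42 RPKM, higher in both ScriptSeq libraries than in both dUTP libraries. Plagl1, an imprinted zinc finger gene, was the only one past 4-fold of 13 genes compared from a chosen list of imprinted genes (0.231, 1.46, 0.627 and 0.342 RPKM), beside the same 2.26%. Imprinted genes outside this list were not counted. Srp54a, of the signal recognition particle, was at 3.09, 19.6, 16.2 and 3.89 RPKM.

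Markers of other ovarian cells were low. Of 12 stroma and theca genes 2 reached 1 RPKM in NGOs, the collagen genes Col1a1 (2.24 RPKM in NGOs and 0.0168, 0.017 and 0.0191 at the 3 later stages) and Col3a1 (1.73, 0.00565, 0.00989 and 0.00898), and the list added up to 6.08 RPKM in NGOs and 0.63, 0.714 and 0.755 in the later libraries. The hemoglobin gene Hbb-b2 was at 1.38 RPKM in NGOs and is listed at 0 in the other libraries, and the 10 listed blood and immune genes added up to 3.38 RPKM in NGOs and 0.576 in GO1. Granulosa cell markers added up to 37.2, 31.7, 37.7 and 42.5 RPKM, of which Serpine2 gave 29.9 in NGOs and 19.3 in GO1, and 13 of 16 were under 1 RPKM in both libraries. Endothelial markers added up to 3.74, 7.42, 11.5 and 14.2 RPKM, of which Pecam1 gave the largest part (1.74, 5.15, 8.28 and 9.7). Of 9 stress and dissociation genes compared 4 fell, beside 2.18% of all genes, the immediate early genes Fos (2.68, 0.0872, 0.0476 and 0.0391 RPKM), Jun (1.55, 0.0643, 0.0325 and 0.0236), Ier2 (6.07, 0.995, 0.547 and 1.64) and Jund (5.38, 0.995, 0.878 and 2.13). NGOs were highest for each of these and for the collagen genes, which the limits for falls require against GO1 and FGOs. Without the listed markers of other cell types and stress genes 154 genes rose and 218 fell, and the part of other cells in those falls was not tested. In bulk libraries fewer cells of a type and less RNA per cell cannot be told apart.

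Several of the largest falls of genes with at least 5 RPKM had FGOs nearer to NGOs than GO1 was. Dctpp1, a dCTP pyrophosphatase gene, was at 44.8 RPKM in NGOs and 3.48, 6.12 and 20.2 at the 3 later stages, and Fbxl15, an F-box gene, at 5.94, 0.415, 0.323 and 2.54. The nuclear receptor gene Nr2f6 (5.84, 0.378, 0.435 and 1.37), Zfp771 (8.16, 0.616, 0.502 and 2.27), the nucleoside transporter gene Slc28a1 (5.27, 0.404, 0.383 and 1.33) and AC154506.1 (46.9, 4.18, 5.08 and 13.4) fell by between 10.2-fold and 11.9-fold in GO1. Among predicted loci the largest falls were those of Gm17352 (34.6 to 1.98 RPKM in GO1), Gm10116 (37.7 to 4.34) and Gm10263 (163 to 20.6). At the 4-fold limit in GO1, Haus3 (28.3 to 109 RPKM, 4.05-fold) and Ceacam10 (1.48 to 5.89, 4.01-fold) lay just inside on the higher side and Arid1a (3.99 to 15.2, 3.96-fold) and Ggta1 (3.32 to 12.3, 3.84-fold) just outside. On the lower side Mrpl14 (10.8 to 2.48, 4.02-fold) and Rps12 (359 to 84.6, 4.01-fold) lay just inside and Exosc4 (17.8 to 4.14, 4.0-fold when rounded) and Cuta (14 to 3.24, 3.99-fold) just outside.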

How the data were processed

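The data are 4 RNA-Seq libraries, 1 for each stage of oocyte growth. According to the submitters' processing notes and the methods, reads were trimmed with Trim Galore 0.2.8 and mapped to GRCm38 with TopHat2 2.0.9, with 1 alignment reported per read, so a read that matches near-identical copies counts for 1 of them. The authors deposited RPKM values on a linear scale; the counting program, its strand setting and the gene annotation are not given in the sources used here, so reads of overlapping and antisense genes cannot be told apart. The table's name calls them read counts, but RPKM steps fit the values.

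Counts were recovered for depth and intervals only. Library totals were fitted to single-exon genes of GENCODE M21, for which at least 99.46% of values came out whole within 0.05 counts, and an exon length that made all 4 libraries whole was then taken for each gene; where a shorter length also fits, counts are too small. The totals behind the RPKM were 110595213 (NGOs), 126796744 (GO1), 241385710 (GO2) and 119629251 (FGOs), of which 57.7% to 61.2% lay on listed genes. A gene with 1 kb of exons at the floor of 3 counts has 0.0271 RPKM in NGOs and 0.0237 in GO1. Intervals are exact Poisson intervals at 95% and cover counting error only, since reads carry no molecular identifiers.

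RPKM were scaled to NGOs by a trimmed mean of log ratios (30% of ratios and 5% of levels trimmed from each end; log2 −0.083 for GO1, −0.123 for GO2 and −0.06 for FGOs), and changes are log2 ratios of scaled RPKM + 0.1. Levels are printed as deposited. Genes with at least 1 RPKM in NGOs or GO1 were compared. Named genes are the 12 largest onset rises and 12 largest onset falls with at least 5 RPKM, the 3 largest each way among Gm and Rik symbols, up to 4 members past 4-fold and the most abundant member of each list, all members of lists of up to 6 genes, the 5 largest changes each way that followed the kit and the genes nearest the limits. Others were chosen after their values were seen (the PRAME, MAGE and clustered histone families, falls of 4-fold in both GO1 and FGOs, and single germ cell, signalling and cell death genes). The gene lists and limits were chosen with earlier results of these data known. GC content was that of the GENCODE transcript closest to the recovered length. Promoters are RefSeq sequences (GRCm38.p6) matched by symbol or synonym, the start nearest to the listed one being taken. Python 3.11.15, numpy 2.4.6, pandas 2.3.3, scipy 1.17.1 and matplotlib 3.10.9 were used. Alternatives were other scalings, pseudocounts, minimums, thresholds and gene sets, and GC centring.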

Additional observations from a re-analysis of the deposited data

How the results depend on the processing

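No paired analysis was possible because each stage has 1 library, and for the same reason no library could be left out. Without scaling, with the median of log ratios, with a pseudocount of 0.01 RPKM or with no minimum, the counts stayed within 1.5 times those reported. No named gene past 4-fold changed direction under these scalings or pseudocounts of 0.01 and 1 RPKM, but this was fixed in advance. The same pseudocount in both libraries cannot change the sign of a ratio, and the scalings moved named genes by at most 0.08 log2. A pseudocount of 1 RPKM put 52 of 194 named genes on the other side of the 4-fold limit and gave 77 higher, 170 lower, 48 rises and 66 falls; a minimum of 5 RPKM gave 101, 257, 65 and 100. The 2-fold limit in GO1 gave 1248 higher (12.1%), 1976 lower (19.2%), 527 rises, 628 falls and 647 genes ordered by kit, and the 8-fold limit 76, 95, 46, 48 and 26. Among protein-coding genes 152 were higher. With the sign of FGOs alone 397 fell, and with 4-fold in FGOs 81. Centring by transcript GC, added after the values were seen, gave 171 lower genes and 87 falls, of which 157 and 79 were among those reported, and 223 higher genes and 150 rises, of which 157 and 113 were. Leaving out marker and stress genes, also added, kept 154 rises and 218 falls. The cause of these shifts was not tested, apart from thresholds and minimums, which by construction admit fewer or more genes. Differences in low genes are limited by depth and by the pseudocount.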
